A study of Caenorhabditis elegans with 2 samples.

Results

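The X chromosome carried 2463 of the 12702 regions in the deposited list of ELT-3 chromatin immunoprecipitation (ChIP) regions called on both replicates together. They were chosen by chromosome alone and were set against the 10213 regions of the 5 autosomes in the same list. The remaining 26 regions were mitochondrial and were left out of every comparison. In this assay the DNA bound by the tagged protein is pulled down, sequenced and mapped. Each region is an interval with a summit, the base of highest signal, and a score of the authors' caller whose scale is not stated.

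All samples belonged to 1 group of 2 biological replicates. The worms were Caenorhabditis elegans of strain OP75, genotype unc-119(ed3) III with the integrated transgene wgIs75, which expresses ELT-3 fused to green fluorescent protein. Whole embryos of mixed stage were taken, with males and females pooled, and the age is given as unknown. Every library carried the unc-119 mutation and the transgene, so there was no contrast of genotype. The share of males, which have a single X chromosome, is not given in the sources used here, and control libraries were not analysed here. Chromatin came from all cells of the embryo, so a region cannot be assigned to a cell type.

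ELT-3 belongs to the GATA family of transcription factors, acts in the worm epidermis and is encoded on X. GATA factors recognise the sequence WGATAR, in which W stands for an A or T and R for a purine. The worm X chromosome is also the target of the dosage compensation complex, a condensin-containing complex that lowers X transcription in animals with a pair of X chromosomes. That complex is recruited at sites on X that share a sequence whose core is GCGCAGGG, and it then spreads along the chromosome. The sex switch gene xol-1, which is repressed where dosage compensation is on, lies on X too.

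The sequences below reach 50 bases to each side of X summits, read from the WBcel235 assembly (the same as ce11). The first group holds the X regions among the 20 of highest score that had the dosage compensation core within 50 bp of the summit, since these set X apart from the autosomes. The second group holds 3 X summits with GATA sequences at genes with known roles in the epidermis. Capitals mark GCGCAGGG and WGATAR on either strand.
Region of highest score on X, intergenic (chrX:11094143-11094243, minus strand): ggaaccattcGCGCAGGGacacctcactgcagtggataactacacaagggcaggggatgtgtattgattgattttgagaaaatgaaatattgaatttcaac
Intron of mom-1 (chrX:6296539-6296639, plus strand): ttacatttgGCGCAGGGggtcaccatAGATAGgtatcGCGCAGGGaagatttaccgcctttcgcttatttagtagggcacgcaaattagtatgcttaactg
Intergenic, near F20B6.9 (chrX:4209255-4209355, minus strand): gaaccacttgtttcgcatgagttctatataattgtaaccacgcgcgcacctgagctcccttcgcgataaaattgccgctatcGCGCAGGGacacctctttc
Intergenic, near gtr-1 (chrX:806630-806730, plus strand): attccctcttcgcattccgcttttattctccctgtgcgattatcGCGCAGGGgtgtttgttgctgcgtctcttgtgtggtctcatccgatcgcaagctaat
Intergenic, near nspc-17 (chrX:14525870-14525970, minus strand): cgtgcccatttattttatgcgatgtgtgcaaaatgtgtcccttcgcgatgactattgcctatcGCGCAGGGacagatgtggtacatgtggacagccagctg
Upstream of the collagen gene dpy-3 (chrX:2145775-2145875, plus strand): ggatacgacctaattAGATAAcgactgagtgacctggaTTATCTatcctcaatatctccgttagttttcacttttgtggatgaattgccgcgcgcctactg
Intron of wrt-9 (chrX:1586882-1586982, minus strand): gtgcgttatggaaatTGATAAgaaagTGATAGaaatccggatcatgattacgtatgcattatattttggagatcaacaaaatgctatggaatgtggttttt
Intron of elt-3 (chrX:13939547-13939647, minus strand): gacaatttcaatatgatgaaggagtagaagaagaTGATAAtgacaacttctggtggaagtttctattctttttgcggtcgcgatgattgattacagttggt
The window of highest score held the core but no WGATAR, and the mom-1 window held 2 cores and 1 WGATAR. The dpy-3 and wrt-9 windows each held 2 GATA sequences and no core.

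The sequence GCGCAGGG, called the dosage compensation core here, was more frequent in ELT-3 regions of X than of the autosomes, mainly among regions of high score. Regions holding it were not matched to known recruitment sites, and binding of the complex was not measured. The authors' reproducible list, which holds the regions that passed their threshold on agreement between replicates, is the set of the 637 highest scores in the pooled list. It had 130 regions on X and 484 on the autosomes. The core lay anywhere inside 15 of those 130 X regions, or 11.5% (exact 95% interval 6.60 to 18.3%), and inside 2 of the 484 autosomal regions, or 0.413% (0.0501 to 1.48%). In the whole pooled list it lay inside 24 of 2463 X regions, or 0.974%, and inside 21 of 10213 autosomal regions, or 0.206%. The replicate lists held the core in 24 of 3743 X regions and 19 of 15396 autosomal regions of the replicate 1 list, and in 31 of 4998 and 31 of 21359 of the replicate 2 list. Within 50 bp of the summit the core lay at 9 X summits, or 0.365%, and at 6 autosomal summits, or 0.0587% (exact test, adjusted p = 0.0019 over 25 share comparisons). X lay above every autosome (0.0397 to 0.106%). Few regions held the core in only the summit window or only a window centred 500 bp away. The summit held it in 9 of 11 such regions on X and 6 of 9 on the autosomes (exact test, adjusted p = 0.77).

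All 32896 possible 8-mers, with reverse complements merged, were screened in whole reproducible regions, X against autosomes, with Fisher's exact test (two-sided) and Benjamini-Hochberg adjustment over all of them. The screen called 4 as more frequent on X, a background of 0.0122% of 8-mers, and none as less frequent. It was chosen after the data had been seen. The 4 called 8-mers overlap each other within a single longer sequence. CCCTGCGC, the reverse complement of the core, had an adjusted p of 5.9e-05. CGCAGGGA lay in 10.8% of X regions and 0.207% of autosomal regions (exact test, adjusted p = 5.9e-05). CTGCGCGA lay in 9.23% and 0.826% (exact test, adjusted p = 0.0481), and CCTGCGCG in 7.69% and 0.413% (exact test, adjusted p = 0.0498). Only the first pair was still called with any of the autosomes I, III, IV or V left out. The same screen of the whole pooled list called 150 as more frequent on X and 243 as less frequent, with the core at place 61 by p. No 8-mer less frequent on X passed in the reproducible regions, and the lowest p of that direction belonged to GAAAAAAC, in 2.31% and 10.5% of regions (exact test, p = 0.0016, adjusted p = 1).

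Seen from the genome, WBcel235 held 81 copies of GCGCAGGG on X and 233 on the autosomes. Of the X copies, 27 lay whole inside a pooled region, or 33.3% (exact 95% interval 23.2 to 44.7%), and 19 lay in a reproducible region, or 23.5% (14.8 to 34.2%). Of the autosomal copies, 19 lay in a pooled region, or 8.15% (4.98 to 12.4%), and 1 lay in a reproducible region, or 0.429% (0.0109 to 2.37%). Pooled regions covered 5.15% of X bases and 4.599% of autosomal bases, and reproducible regions covered 0.270% and 0.220%. WGATAR copies lay in pooled regions in 6.10% of cases on X and 5.77% on the autosomes, and in reproducible regions in 0.433% and 0.458%. Copies of GAGAGA lay in reproducible regions in 1.80% and 1.31% of cases, and copies of GACGCAG in 2.63% and 1.69%. These shares of copies were computed after the data had been seen and were not tested.

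**Figure D1:**
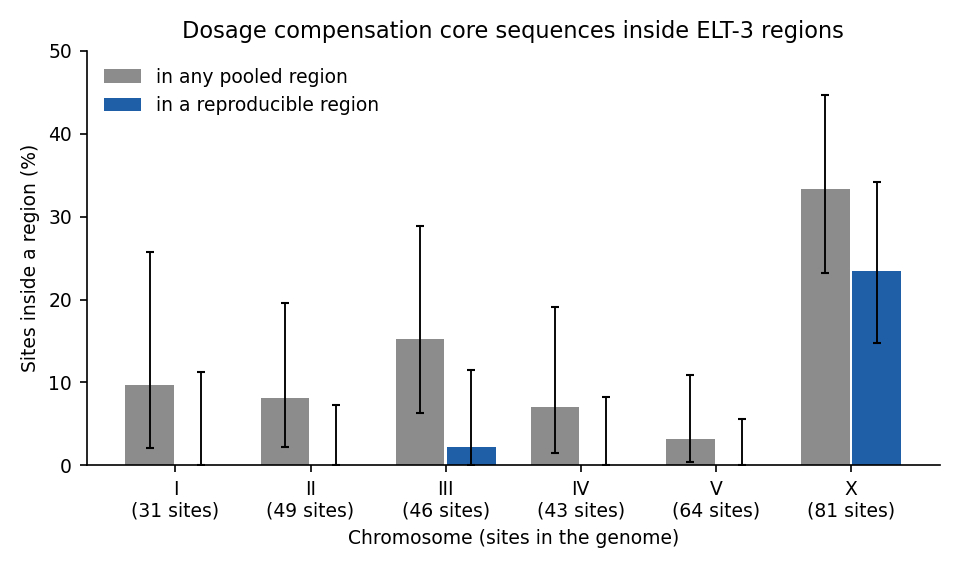
Bars give the percentage of all copies of the dosage compensation core on each chromosome that lie inside any pooled region (grey) or inside a reproducible region (blue), with exact binomial 95% intervals as error bars. The X bars stand at 33.3% and 23.5%, while no autosome passes 15.2% for pooled regions or 2.17% for reproducible regions.

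The 15 reproducible X regions with the core held 19 copies in all, with more than 1 copy in 4 regions. No neighbouring pair of these regions had summits closer than 46170 bp, so they are separate sites. Their scores ran from 44.0 to 138.9 with a median of 93.4, and the other 115 reproducible X regions had a median of 54.1. Of the 15 summits, 11 were intergenic and 2 were in introns, 4 lay in the 5′ window of a gene (the stretch from 1000 bp upstream to 500 bp downstream of an annotated protein-coding 5′ end) and 9 lay more than 2000 bp from any such end. WGATAR lay within 50 bp of 4 of the 15 summits, and 1 lay within 200 bp of a tRNA gene. The replicate 1 list had a summit within 100 bp for 15 of them and the replicate 2 list for 13.

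The highest of these was also the highest region on X. Its summit was at position 11094193, 3993 bp downstream of the 5′ end of W02H3.3, with a score of 138.9 in the pooled list, 90.3 in the replicate 1 list and 52.4 in the replicate 2 list. It held 2 copies of the core, the nearer 37 bp from the summit. The next, at 6296589, lay in an intron of mom-1, which encodes a Porcupine-type enzyme needed to secrete Wnt proteins, with scores of 138.7, 78.8 and 62.5. Its nearest core copy was 9 bp from the summit.

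Other core regions lay near genes of unrelated kinds. The region at 806680 had a score of 121.4 and its summit 2 bp from a core copy, 3902 bp downstream of the 5′ end of gtr-1. The region at 5429532 had a score of 121.2 and lay in a coding exon of pks-1, a polyketide synthase gene, with the core 62 bp from the summit. The region at 8036408, with a score of 62.4, lay 4905 bp upstream of xol-1, and its summit was 3 bp from a core copy. It had a match in the replicate 1 list, at 48.02, and none within 100 bp in the replicate 2 list. An overlapping pooled region that was not reproducible had its summit at 8036608 and a replicate 2 match, at 24.2. This second region also held the core, 169 bp from its summit, and the summit lay within 200 bp of a tRNA gene. All 130 reproducible X regions overlapped a region in both replicate lists, as did all 484 autosomal ones. The reproducible list was chosen on agreement between replicates, so this overlap is not separate evidence.

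**Figure D2:**
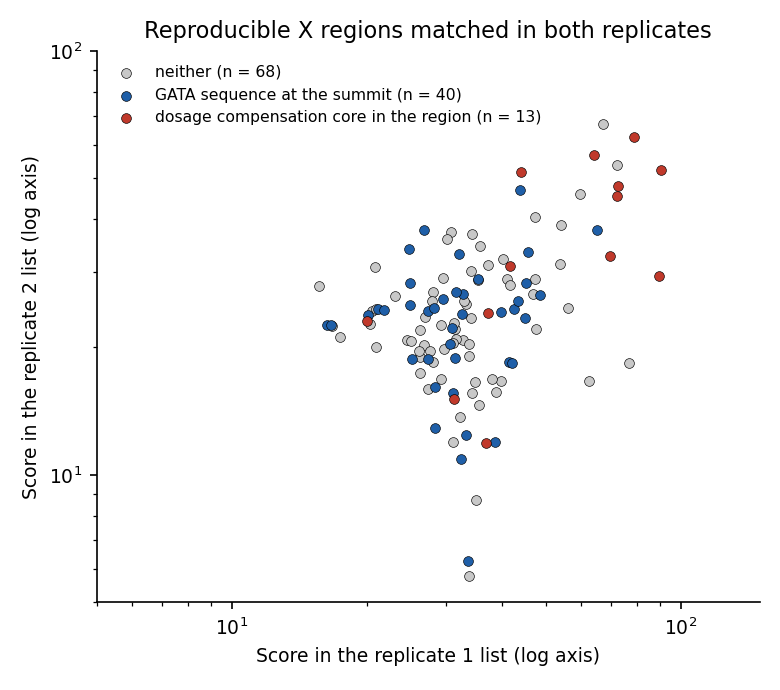
Each point is a reproducible X region with a summit within 100 bp in both replicate lists, placed by its score in the replicate 1 list and in the replicate 2 list, both on log axes. Regions with the dosage compensation core, with or without WGATAR (red, n = 13), fill much of the upper right. Those with WGATAR within 50 bp of the summit and no core (blue, n = 40) lie mostly among the rest (grey, n = 68).

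The 20 X regions of highest score, from 138.9 down to 77.4, were led by intergenic sites away from genes. Of these summits, 14 were intergenic, 3 intronic, 2 in exons of genes or transcripts without a coding sequence there, and 1 in a coding exon. A 5′ window held 5 of them, against 3 to 12 of the 20 highest on each autosome, and 11 lay more than 2000 bp from a protein-coding 5′ end. All 20 had a match within 100 bp in both replicate lists. The core lay inside 8 of the 20 and WGATAR within 50 bp of 4 summits. The 20 highest regions of each autosome held WGATAR at 7 to 11 summits, and the core lay inside 1 of all 100 of them, on chromosome III. These counts are descriptions and were not tested.

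The X regions without the core in that group lay near varied genes. The third highest, at 13700874, had a score of 134.0 and was intergenic. The region at 14560486, with scores of 110.4 in the pooled list, 59.7 in the replicate 1 list and 46.0 in the replicate 2 list, lay in an intron of nhr-3, a nuclear hormone receptor gene. The summit at 13917612 lay 441 bp upstream of ekl-5 with a score of 95.9, and the summit at 15607681 lay 288 bp upstream of its nearest 5′ end with a score of 88.1. The summit at 11605922 lay 503 bp upstream of ftt-2, which encodes a 14-3-3 adaptor protein, with a score of 81.4. A region at 6744050 scored 90.5 and lay 1699 bp downstream of the 5′ end of mdl-1, a gene for a Mad-type helix-loop-helix factor.

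In the pooled list the share of summits with WGATAR did not differ between X and the autosomes beyond the test. WGATAR lay within 50 bp of 622 of 2463 X summits, or 25.3%, and of 24.5% of autosomal summits (two-sided Fisher's exact test with Benjamini-Hochberg adjustment for 25 share comparisons, adjusted p = 0.64). The difference of 0.76 percentage points had a 95% interval of -1.12 to 2.69. Windows centred 500 bp away held it in 20.8% of cases on X. Among X regions with WGATAR in only the summit window or only the flank window, the summit held it in 491 of 873, or 56.2%, against 57.5% on the autosomes (exact test, adjusted p = 0.72). WGATAR is also more common in X sequence as a whole, in 21.4% of all windows of that width on X and 19.5% of those of the autosomes.

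On X the GATA share was higher at higher ranks. WGATAR lay at 34.6% of the 130 X summits ranked 1 to 637, at 29.9% of those ranked 638 to 1500, at 27.9% up to rank 3000, at 25.3% up to rank 6000 and at 23.2% of the 1320 below. Its flank shares on X ran from 18.98 to 22.6% over the same ranks. On the autosomes the summit shares ran from 39.5% down to 21.5%. The longer GATA sequence CTTATCA lay at 3.49% of X summits and 4.21% of autosomal summits (exact test, adjusted p = 0.21). In the reproducible list it lay at 4.62% of X summits and 17.15% of autosomal summits (exact test, adjusted p = 0.0014). TGATAA lay at 11.6% and 12.3% in the pooled list (exact test, adjusted p = 0.58) and at 16.2% and 26.7% in the reproducible list (exact test, p = 0.0154, adjusted p = 0.10). WGTAAR, a scrambled control for WGATAR, lay at 22.98% of X summits and 20.18% of autosomal summits (exact test, adjusted p = 0.0058), and X lay above every autosome (18.8 to 22.7%). Within 25 bp the shares were 11.6% and 10.5% (exact test, adjusted p = 0.27). Of all windows of that width, 23.96% on X and 21.1% on the autosomes hold it.

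GAGAGA and GACGCAG, which led earlier sequence searches of these lists, were compared next, and GACGCAG passed the test within 50 bp of summits. GAGAGA lay at 11.98% of X summits and 13.4% of autosomal summits (exact test, adjusted p = 0.13). It passed the test within 100 bp, at 20.06% and 22.3% (exact test, adjusted p = 0.038), and with autosome V left out, at 11.98% and 13.9% (exact test, adjusted p = 0.041). GACGCAG lay at 55 X summits, or 2.23%, and at 3.86% of autosomal summits, a difference of -1.62 percentage points (95% interval -2.27 to -0.87, exact test, adjusted p = 1.9e-04), and X lay below every autosome (3.21 to 4.66%). It is rarer in X sequence generally, in 0.529% of all windows of that width on X and 0.817% of those of the autosomes. The share at summits was 4.22 times the share of all windows on X and 4.72 times on the autosomes.

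All possible 6-mers, with reverse complements merged, within 50 bp of the summit were compared with the same test, adjusted over all 6-mers. On X, 39 were more frequent and 39 less frequent, 1.88% of those tested in each direction. CAAAAC led the first, at 14.7% of X summits and 10.8% of autosomal summits (exact test, adjusted p = 3.1e-05), and GGTCTA came next, at 2.72% and 1.32%. AATTTC led the second, at 16.4% and 21.8% (exact test, adjusted p = 2.0e-06), and AAATTC came next, at 13.5% and 18.5%. The others with the smallest p were GTTGTA at 5.52% and 3.54%, GTCTAA at 4.18% and 2.50%, and GCTTAC at 2.60% and 1.32% among those higher on X. Among those lower on X they were AAATTT at 16.04% and 21.1%, AAAATT at 30.9% and 37.0%, and CGAAAA at 11.98% and 16.4%. Of the 78 called, 72 differed in the same direction in the flanks. Comparing summits with their own flanks left 0 called, or 0% of those tested, with 122 at an unadjusted p under 0.05 and a smallest adjusted p of 0.42, for 6-mers that included AGGCAG and GGTCTA. The GC content of the whole X chromosome, at 35.2%, lay within the range of single autosomes, from 34.6 to 36.2%. Mean GC at pooled summits was 37.3% on X, also within that of single autosomes (36.1 to 37.7%). At reproducible summits it was 46.1% on X, above every autosome (43.6 to 45.3%).

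X regions were spread more evenly along their chromosome than autosomal ones. The middle of 3 equal stretches of X held 865 of the 2463 summits, or 35.1%, against 41.1% on the autosomes (difference -5.99 percentage points, 95% interval -8.09 to -3.86, exact test, adjusted p = 3.6e-07). Every autosome had a higher share, from 37.7 to 43.2%. Over 10 equal stretches X ran from 114.0 regions per Mb in the first to 158.0 in the sixth and 127.5 in the last. The autosomes together ran from 158.1 per Mb in the fifth to 91.3 in the last. Of protein-coding 5′ ends, 35.7% lay in the middle stretch of X and 38.1% in those of the autosomes.

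**Figure D3:**
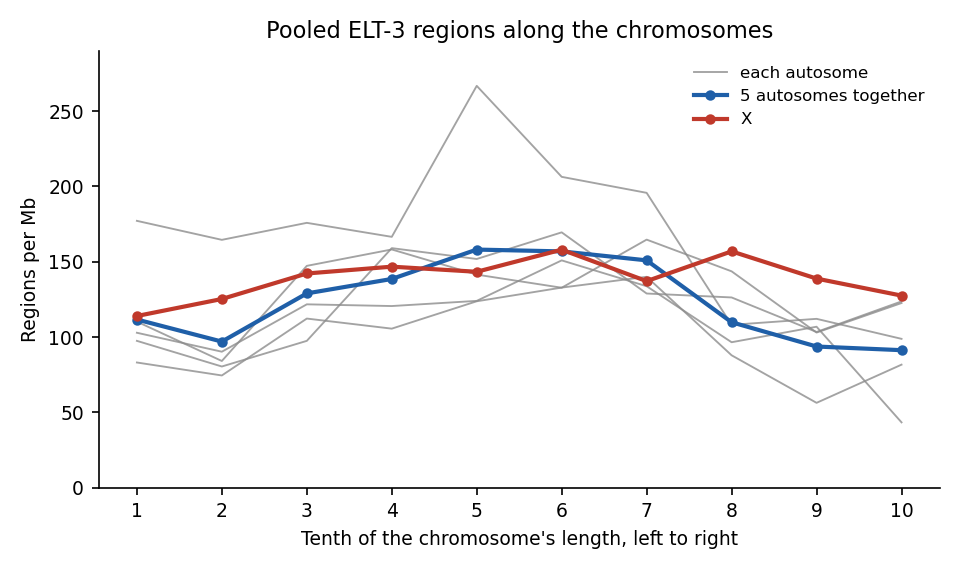
Pooled regions per Mb are plotted for 10 equal stretches of each chromosome, for X (red), the 5 autosomes together (blue) and each autosome (grey). X stays between 114.0 and 158.0 per Mb, and the autosomes together fall to 91.3 per Mb in the last stretch.

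X held more regions than its share of genome length. The 2463 regions made 19.4% of the nuclear total, and X makes 17.7% of nuclear genome length (exact binomial test, two-sided, adjusted p = 1.8e-06). The density of 139.0 per Mb lay within the range of single autosomes, from 99.8 to 167.2 per Mb, so X did not stand apart from them. X held 21.2% (exact 95% interval 18.005 to 24.6%) of the 614 nuclear regions ranked 1 to 637 and 19.7% of those below rank 6000. Among the 100 highest regions of each list it held 18 of 78 nuclear regions in the pooled list, 17 of 74 in replicate 1 and 17 of 81 in replicate 2.

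**Figure D4:**
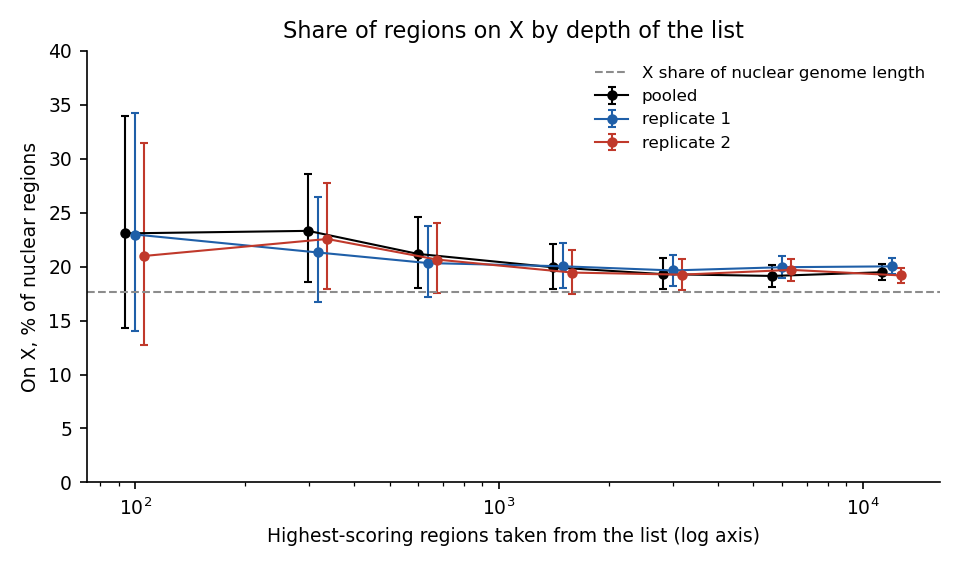
The percentage of nuclear regions that lie on X is plotted against the number of highest regions taken (log axis) from the pooled list and each replicate list, with exact 95% intervals as error bars. The lines run from 23.1, 22.97 and 20.99% at the 100 highest to between 19.2 and 20.02% at the 12000 highest, and the dashed line marks the share of genome length at 17.7%.

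Agreement between the replicates did not differ between X and the autosomes beyond the test. A region in both replicate lists overlapped 1397 of the X regions, or 56.7%, and 56.7% of the autosomal ones (difference 0.01 percentage points, 95% interval -2.18 to 2.18, exact test, adjusted p = 1). The reproducible share was 5.28% on X and 4.74% on the autosomes (difference 0.54, 95% interval -0.38 to 1.57, exact test, adjusted p = 0.48). Over the 892 X regions matched within 100 bp in both replicate lists, the Spearman correlation of the replicate scores was 0.456, and the autosomes ran from 0.426 to 0.505, a description across regions. The score percentile within the pooled list had a median of 48.6 on X and between 47.7 and 53.5 on the autosomes. The lowest X scores inside the reproducible list were 42.3, 42.2 and 42.03, and the highest outside it were 41.9, 41.9 and 41.6. On X, 287 regions, or 11.7%, overlapped another region of the list, so neighbouring regions share reads, as did 10.5% of autosomal regions.

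Summits on X lay further from genes. Those within a 5′ window numbered 767, or 31.1%, against 38.9% on the autosomes (difference -7.80 percentage points, 95% interval -9.83 to -5.72, exact test, adjusted p = 1.1e-11), and every autosome had a higher share, from 34.4 to 40.5%. The median distance to the nearest protein-coding 5′ end was 1640 bp on X and 1223 bp on the autosomes. X is also poorer in genes, with 154.1 protein-coding genes per Mb against 208.9, and 5′ windows make up 21.9% of its bases against 27.4%. The share of summits was 1.42 times the share of bases on X and 1.42 times on the autosomes.

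Intergenic sequence held more of the X summits and coding exons fewer. Intergenic summits made 50.1% on X and 46.2% on the autosomes (exact test, adjusted p = 0.0015), while intergenic bases made 41.0% and 31.6%, a ratio of 1.22 on X and 1.46 on the autosomes. Coding exons held 8.44% of X summits and 12.7% of autosomal summits (exact test, adjusted p = 1.8e-08), against 19.97% and 25.6% of bases. Introns held 27.3% and 27.5% (exact test, adjusted p = 0.92). UTRs held 7.80% and 9.03% (exact test, adjusted p = 0.12). Exons without coding sequence or UTR held 6.33% and 4.63% (exact test, adjusted p = 0.0021). That call was lost without regions near small RNA genes, at 4.69% and 3.92% (exact test, adjusted p = 0.21), and with autosome I left out, at 6.33% and 5.19% (exact test, adjusted p = 0.081).

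**Figure D5:**
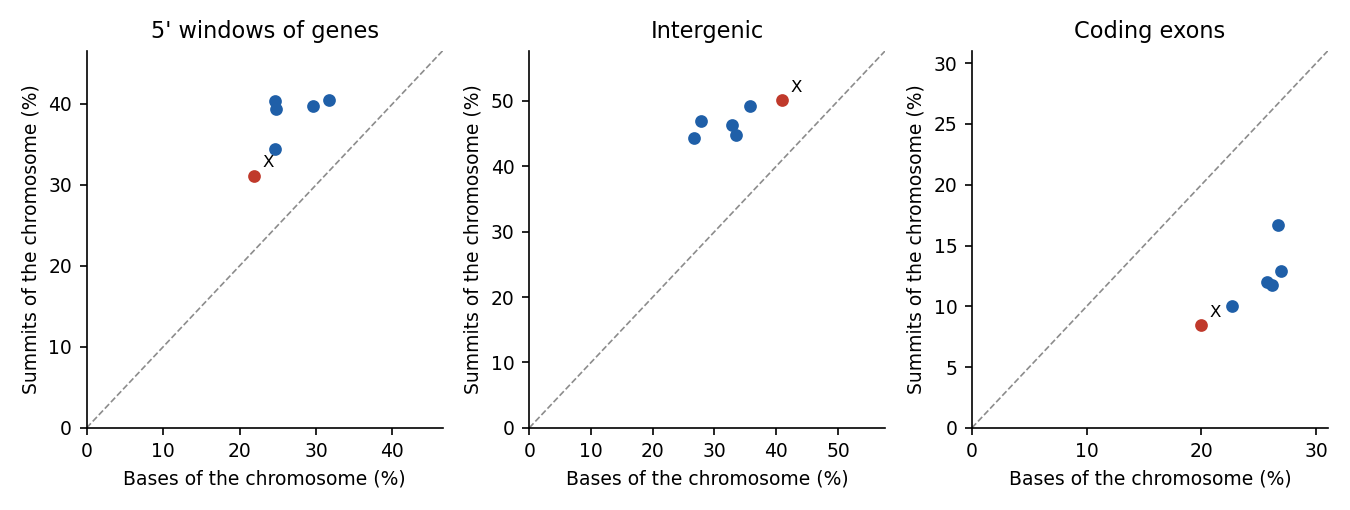
For each chromosome, the percentage of pooled summits in 5′ windows, intergenic sequence or coding exons is plotted against the percentage of the chromosome's bases in that class; X is red, each autosome is blue and the dashed line marks equal shares. X is the lowest point for 5′ windows at 31.1% of summits and 21.9% of bases, and the highest intergenic point at 50.1% and 41.0%.

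Summits near genes for small structural RNAs were more frequent on X, and most of these lay near transfer RNA genes. Summits within 200 bp of a gene for a small structural RNA (tRNA, snRNA, snoRNA or rRNA) numbered 98 on X, or 3.98%, and made 2.17% on the autosomes (difference 1.81 percentage points, 95% interval 1.04 to 2.69, exact test, adjusted p = 6.6e-06), where the range was 1.91 to 2.54%. On X, 93 summits lay near a tRNA gene. X carries 276 of the annotated tRNA genes and the autosomes together 336. A pooled summit lay within 200 bp of 100 tRNA genes on X, or 36.2% (exact 95% interval 30.6 to 42.2%), and of 103 on the autosomes, or 30.7% (25.8 to 35.9%). For reproducible summits the numbers were 23 on X, or 8.33% (5.36 to 12.2%), and 11 on the autosomes, or 3.27% (1.65 to 5.78%). The shares of genes were not tested, and neighbouring tRNA genes can share 1 summit. In the reproducible list alone, with 130 X regions, the differences in the X share of regions, the middle stretch, 5′ windows, intergenic sequence, coding exons, other exons, small RNA genes, GACGCAG and WGTAAR kept their direction and did not pass the test.

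Small nucleolar RNA genes, which guide RNA modification, are few on X, and the intervals of the shares below overlap. A pooled summit lay near 4 of 33 on X, or 12.1% (3.403 to 28.2%), and near 88 of 313 on the autosomes, or 28.1% (23.2 to 33.4%). No X snoRNA gene had a reproducible summit, which allows up to 10.6% by the exact interval, and 24 autosomal ones did, or 7.67%. These shares were not tested. X has only 3 annotated snRNA genes, of which 1 had a pooled summit.

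A pooled summit lay in the 5′ window or body of 41% of the 2731 protein-coding genes of X and of 35.8% of autosomal genes. A reproducible summit did so for 2.78% on X and 2.5% on the autosomes. In 5′ windows alone the shares were 26.5% and 25.2%. These shares were not tested, and the gene lists that follow are read against them.

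Of 6 X-linked genes of sex determination and dosage compensation, all 6 had a pooled region and none had a reproducible one, and on the autosomes 14 of 17 had a pooled region and 0 a reproducible one. At sdc-2, which brings the dosage compensation complex to X, the summit at 11522381 lay 326 bp upstream of the 5′ end with scores of 35.2 in the pooled list, 18.5 in the replicate 1 list and 14.04 in the replicate 2 list. In sex-1, a nuclear receptor gene that counts as an X signal for sex, an intronic summit scored 33.1. At sdc-1, a zinc finger gene of the same pathway, a summit 362 bp upstream scored 28.1 and had no match in the replicate 1 list.

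Among the 30 X-linked cuticle collagen genes, 11 had a pooled region and 2 a reproducible one. The summit of dpy-3, a collagen of the furrows of the cuticle, lay 178 bp upstream of the 5′ end with scores of 53.4 in the pooled list, 28.1 in the replicate 1 list and 24.8 in the replicate 2 list. An intronic summit in col-173 scored 46.2, and a summit 2 bp upstream of col-181 scored 32.4 and was not reproducible. The 2 X-linked hypodermal regulators on the list, elt-3 and nhr-25, both had regions, and nhr-25, a nuclear receptor of the epidermis, reached 36.8 at 498 bp upstream.

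Regions at elt-3 itself lay inside the gene rather than in its 5′ window. Its 3 summits were intronic, at 13937353, 13938172 and 13939597, with scores of 75.02, 41.9 and 48.1, of which the first and last were reproducible. WGATAR lay within 50 bp of the summits at 13938172 and 13939597, but not of the highest, at 13937353. Within 50 kb of the gene (chromosome X, 13934874 to 13941216 in WBcel235) there were 25 regions, a density of 235.1 per Mb. The 4 reproducible ones included the summits at 13917612, upstream of ekl-5, and at 13920569, near mir-47. The strain carries additional elt-3 sequence in the transgene, and reads from the transgene and from the native gene cannot be told apart. Of the 4 X-linked GATA factor genes, elt-3 was the only 1 with a region, and 4 of 8 autosomal ones had a region.

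Nuclear receptor, Wnt and Hedgehog-related genes supplied further X sites. Of 27 X-linked nuclear receptor genes, 16 had a pooled region and 4 a reproducible one, against 84 and 10 of 247 on the autosomes. After nhr-3 came an intronic summit in nhr-14 at 58.3 and a summit 588 bp upstream of nhr-48 at 46.1. All 3 X-linked Wnt pathway genes had a region, against 12 of 18 on the autosomes. Beside mom-1 these were bar-1, a beta-catenin gene, at 22.9, and lin-18, a Wnt receptor gene, at 21.2. The bar-1 summit had no match within 100 bp in either replicate list. Of 13 Hedgehog-related genes 8 had a region, led by an intronic summit of wrt-9 at 77.2, 48.7 in the replicate 1 list and 26.6 in the replicate 2 list, and a summit 898 bp upstream of ptr-4, a Patched-related gene, at 39.9.

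Apical matrix genes had regions at 5 of 10 X-linked members, with lpr-3, a lipocalin of the embryonic apical matrix, highest at 51.5 and 110 bp upstream, followed by sym-1 at 24.8 and mlt-9 at 18.8. Of 56 listed X-linked microRNA genes, 12 had a summit within 1000 bp and 4 a reproducible one, against 50 and 7 of 161 on the autosomes. Over all annotated microRNA genes, a pooled summit lay within 200 bp of 5 of 74 on X and 23 of 187 on the autosomes. A reproducible summit lay within 200 bp of 0 and 4 of them. The shares of protein-coding genes do not apply to these measures, and the microRNA counts were not tested. A summit near mir-47 scored 54.3, and 1 summit at 13145521, with a score of 50.8, served both mir-55 and mir-56.

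No X-linked member of the lists for other cell types and gene families had a reproducible region. A reproducible summit lay at 2.78% of all X genes and these lists are short, so this count is near that share. Among autosomal members, a reproducible region lay at 20 of 77 ribosomal protein, 3 of 46 histone and 3 of 24 osmotic or antimicrobial genes. The same held for 2 of 28 muscle and 3 of 171 detoxification genes, and for no neuronal, intestinal, pharyngeal or homeobox gene. These counts were not tested. Muscle genes had a region at 3 of 9 X-linked members, at most 28.7 at the actin gene act-4. Neuronal genes had a region at 6 of 13, at most 27.5 in an intron of unc-3. Intestinal genes had a region at 1 of 10 (ifc-2, at 15.2) and pharyngeal genes at 1 of 2 (peb-1, at 16.1). Homeobox genes had 11 of 26, led by vab-3 at 20.3. Detoxification genes had 8 of 14, led by ugt-50 at 41.6 and gst-42 at 35.4. Of 2 ribosomal protein genes, rpl-11.2 had a region at 27.4, and of 2 osmotic or antimicrobial genes, cnc-8 had a region at 29.7. None of the 4 X-linked histone genes, which include his-24 and his-38, had a region, and the germline list has no X-linked member.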

How the data were processed

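The deposited ce11 region lists of the 1 group were used: a list per replicate (19168 and 26381 regions), the pooled list and its reproducible subset. Ce10 lists served as an alternative. Column 7 is a score of the authors' caller, per the file headers' order of columns, with no stated scale, so it was ranked only within a list. The deposited −log10 q-value was not used. Aligner, caller and threshold: not given in the sources used here. Read depth is unknown from region lists, and exact binomial intervals cover counting error only.

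Summits were annotated with Ensembl release 115, and sequence came from RefSeq's WBcel235, within which every region ended. Shares on X and autosomes were compared with Fisher's exact test (scipy 1.17.1, statsmodels 0.14.6, Python 3.11.15), with Benjamini-Hochberg adjustment over 25 comparisons. Threshold was 0.05. Regions are not biological replicates. Each p covers counting error over regions taken as independent, although some overlap, and the range over the 5 autosomes stands beside it. 6-mer and 8-mer screens were tested on simulated data. Alternatives covered the list, the replicate, each autosome, elt-3 and small RNA surroundings, window sizes and overlap rules. Members, sequences and lists were chosen with earlier results of these data known. Genes were named at the 20 highest X regions, at elt-3 and as up to 3 X-linked members per list with the highest scores; the core regions beyond those, and xol-1, were named after their values were seen. The symbols opt-2 and let-7 were not matched.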

Additional observations from a re-analysis of the deposited data

How the results depend on the processing

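Differences are X minus autosomes in percentage points. Of 267 alternative values for 24 results, 216 met the criterion for their kind, which was the same direction and side of the threshold for a test, within 1.5 times for a count of 6-mers or 8-mers, and within 1 SD over the autosomes for the correlation. The share of regions with the core kept its direction and its call under every alternative tried, within 50 bp of summits and in whole regions. The comparison of summits with their flanks did not pass for the core (exact test, adjusted p = 0.77). With the 130 reproducible X regions alone, several calls were lost. They were the X share of regions at 3.50, the middle stretch at -11.17, 5′ windows at -7.46, intergenic sequence at 7.63, small RNA genes at 6.14, coding exons at -0.528, other exons at 2.75, GACGCAG at -6.92 and WGTAAR at 3.25. In that list WGATAR turned to -4.85 and UTRs to 0.127, and neither passed the test. CTTATCA, not called in the pooled list, stood at -12.5 there and passed (exact test, adjusted p = 0.0014). Its X share lay below every autosome (11.5 to 22.9%).

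Results that were not called changed sign in places. WGATAR was -0.0492 within 25 bp, TGATAA was 1.27 within 100 bp and introns were 0.238 without small RNA surroundings. Replicate overlap was -0.313 without elt-3 surroundings, -0.640 without small RNA surroundings, -0.0994 on ce10 and -0.492 for summits within 100 bp. With a replicate or an autosome left out, WGATAR ran from -0.302 to 1.43, TGATAA from -1.35 to 0.371, introns from -3.49 to 0.935 and replicate overlap from -1.16 to 1.14. The intron difference passed the test in the replicate 2 list alone, where it was lowest.

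The 78 6-mers became 1 (CCCTGC) in reproducible regions, 21 within 25 bp and 270 within 100 bp, and 44 to 397 with a replicate or an autosome left out. Against flanks 1 was called within 25 bp (CATGGG) and 1 within 100 bp (AGGCAG). The 4 8-mers became 150 in the pooled list and 2 to 981 with a replicate or an autosome left out; single replicates have no reproducible list, so whole lists were screened there. The replicate correlation on X was 0.319 over reproducible regions, 0.522 for summits within 50 bp and 0.611 as Pearson's r on log10 scores. The causes were not tested. No paired analysis was possible because the samples form 1 group.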
